A study of Mus musculus with 28 samples.

Results

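Glucose release and glucose use by the liver were followed through 9 of the 37208 genes and transcripts on the array. The genes were chosen by name, and each was found through the RefSeq accession of its probe, which gave 1 probe per gene. Of the 9, 5 serve glucose release (G6pc, Pck1, Fbp1, Tat and Pcx), 3 serve glucose use (Pklr, Hk2 and Pkm), and Slc2a2 is the sugar carrier of the hepatocyte membrane. Liver RNA of 28 male mice was measured, 1 array per animal, in 3 feeding experiments with phenobarbital (PB), a barbiturate that induces drug metabolism through the nuclear receptor CAR. C3H/HeNCrlCrlj mice, called C3H here, were given 500 ppm PB, against 0 ppm in their controls, for 27 weeks (n = 3 per group), and both groups had first been injected once with 90 mg/kg diethylnitrosamine, a liver carcinogen. In hCAR/hPXR mice, which carry the human receptors CAR and PXR, the diet held 1000 ppm PB, against 0 ppm in controls, for 7 days (n = 7 per group). CD-1 mice, an outbred stock, were given 1500 ppm PB, against 0 ppm in controls, also for 7 days (n = 4 per group). Age, the hour of killing and any fasting before it are not stated in the labels, which mention free access to food. For the C3H mice, no label tells tumour from surrounding liver. Strain, dose, duration and carcinogen differ together between the experiments and cannot be told apart.

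Between meals the liver makes glucose from lactate, glycerol and amino acids and exports it, and after a meal it takes glucose up and burns or stores it. Glucagon, glucocorticoids and fasting raise transcription of the enzymes that run the pathway towards glucose, and insulin lowers it, while sugar and insulin raise the glycolytic enzymes of the hepatocyte. Activators of CAR are known in mice to lower transcription of G6pc and Pck1. Liver tumour cells are known to express the pyruvate kinase gene Pkm and the hexokinase gene Hk2, both low in normal hepatocytes.

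A level below is the log2 processed signal of a probe minus the 75th percentile of its array. Levels are compared for the same gene between animals, not between genes. Per array, 41.3% to 70.5% of probes were well above background, and the scanner software's upper percentile of net signal was 22077 to 31767 on C3H arrays and 30188 to 47747 on hCAR/hPXR arrays, against 4027 to 6495 on CD-1 arrays. Replicate spots varied more than the software accepts on all 8 CD-1 arrays and on 3 hCAR/hPXR arrays. All C3H arrays shared 1 slide. The hCAR/hPXR control arrays shared a slide with PB animal 1, the other hCAR/hPXR PB arrays lay on another, and the CD-1 PB and control arrays lay on separate slides, so that slide and treatment cannot be told apart in CD-1. Cyp2b10, the usual marker of PB exposure, rose by 5.74 ± 0.25 in C3H, 4.49 ± 0.20 in hCAR/hPXR and 6.66 ± 0.47 in CD-1 mice (log2, SE). In bulk RNA, fewer cells of a type and less RNA per cell cannot be told apart.

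The start regions of 4 genes are shown because G6pc and Tat fell in both C3H and CD-1 mice, Pck1 differed most among treated C3H animals, and Pklr rose in C3H mice. Sequences are RefSeq's for mouse build GRCm38.p6, 250 bases before to 50 after the start of transcription, read on the gene's strand, and capitals mark motif matches on either strand. G6pc is chr11:101367466-101367765, Tat chr8:109990186-109990485, Pck1 chr2:173152823-173153122 and Pklr, of whose 2 windows the upstream one is given, chr3:89135892-89136191, all on the plus strand.
G6pc: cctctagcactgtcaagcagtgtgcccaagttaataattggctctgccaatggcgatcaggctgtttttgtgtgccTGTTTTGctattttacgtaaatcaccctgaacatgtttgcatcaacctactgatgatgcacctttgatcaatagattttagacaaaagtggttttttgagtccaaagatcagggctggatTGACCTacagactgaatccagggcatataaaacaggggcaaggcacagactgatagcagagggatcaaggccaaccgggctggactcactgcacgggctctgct
Tat: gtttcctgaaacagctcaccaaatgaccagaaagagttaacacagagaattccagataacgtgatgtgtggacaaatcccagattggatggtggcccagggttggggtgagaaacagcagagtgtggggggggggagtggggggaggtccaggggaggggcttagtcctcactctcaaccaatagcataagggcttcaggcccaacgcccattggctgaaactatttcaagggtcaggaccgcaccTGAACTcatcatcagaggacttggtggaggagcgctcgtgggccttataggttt
Pck1: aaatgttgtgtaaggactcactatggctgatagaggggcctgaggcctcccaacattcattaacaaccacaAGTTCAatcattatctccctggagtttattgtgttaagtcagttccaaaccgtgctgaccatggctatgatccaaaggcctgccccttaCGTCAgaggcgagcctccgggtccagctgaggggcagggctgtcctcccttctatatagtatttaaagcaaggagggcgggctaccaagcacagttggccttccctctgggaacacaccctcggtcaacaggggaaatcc
Pklr: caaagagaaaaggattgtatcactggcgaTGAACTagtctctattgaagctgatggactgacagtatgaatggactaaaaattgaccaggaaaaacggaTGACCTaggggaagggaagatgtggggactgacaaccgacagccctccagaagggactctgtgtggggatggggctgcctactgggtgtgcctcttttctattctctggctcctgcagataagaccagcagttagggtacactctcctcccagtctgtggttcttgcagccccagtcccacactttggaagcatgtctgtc
The G6pc window held the insulin response sequence TGTTTTG 174 bases before the start, found in 6.28% of the 32851 windows of the same length, and none of the other 8 genes held it. The core of the cAMP response element, TGACG, stood 90 bases before the start of Pck1 and was also present in Hk2 and Pkm (20.8% of all windows). The nuclear receptor core AGGTCA occurred in G6pc, Pcx, Pklr, Pkm and Slc2a2 (16.3% of all windows), and AGTTCA in Fbp1, Pck1, Pklr and Tat (14%). Both Pklr matches lay in its upstream window, and its downstream window, not shown, held no match to any motif named here. Which of its starts the liver uses was not determined here. The forkhead motif TGTTTAC (3.65%), the glucocorticoid receptor core TGTTCT (19%) and direct repeats of the nuclear receptor core 4 bases apart (0.0274%) had no match in the members' 12 windows, and the E-box CACGTG (7.15%) matched in Pcx. No motif overlapped another in the windows shown. A match is a description of these letters.

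**Figure D1:**
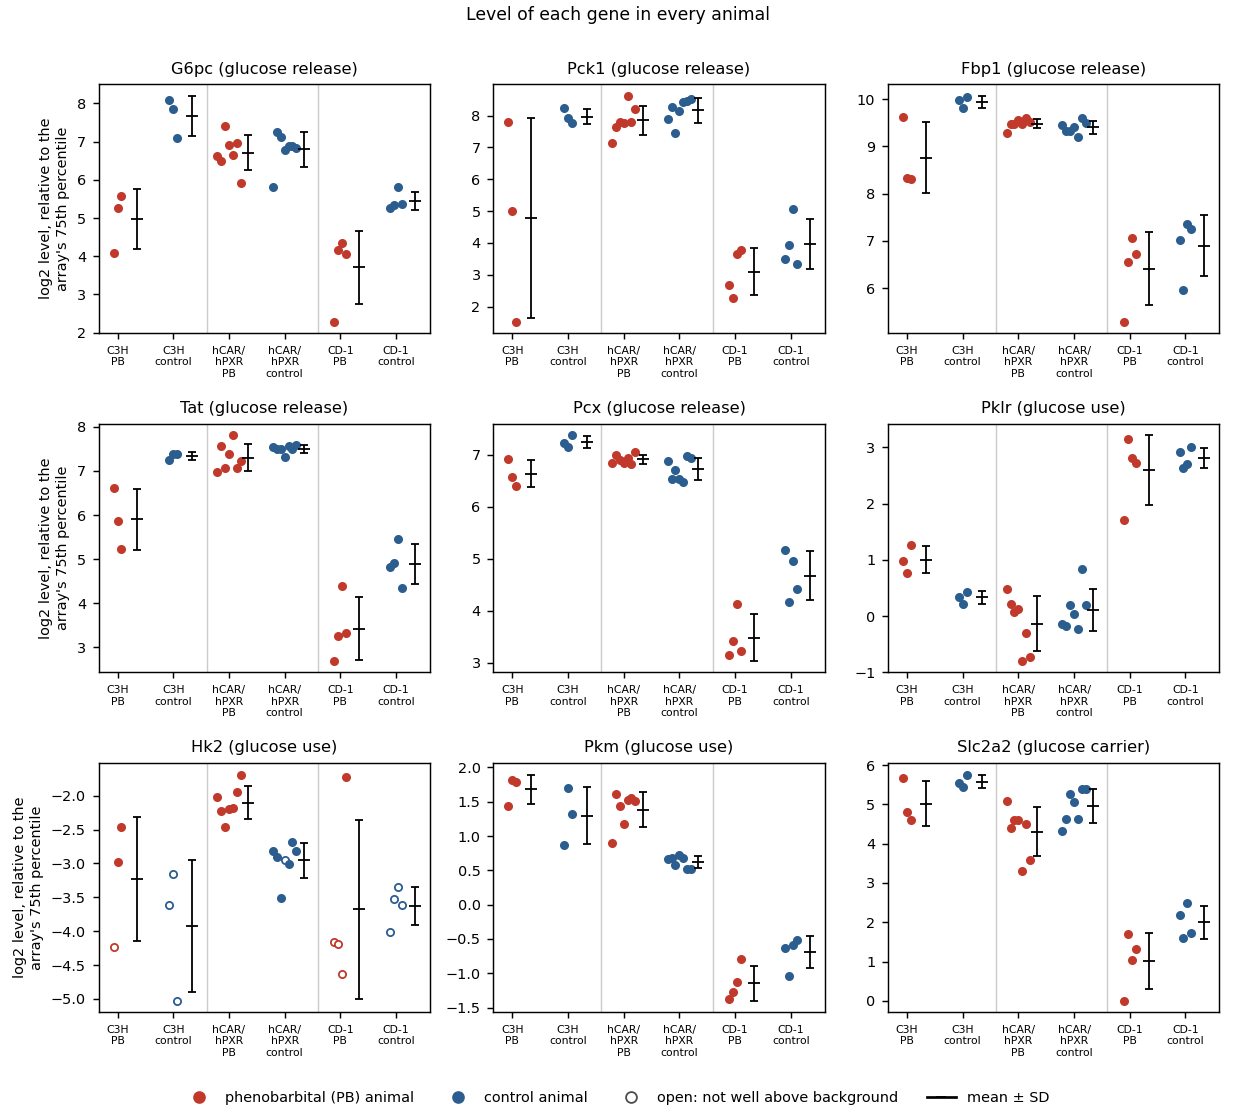
Log2 level of each of the 9 genes in every animal, relative to the 75th percentile of its array, with C3H, hCAR/hPXR and CD-1 mice from left to right and PB animals left of controls within each strain. Open points were not well above background, and the bars give mean ± SD; the 3 C3H PB animals lie below all C3H controls for G6pc, and Pck1 spreads between 1.52 and 7.81 among them.

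In C3H mice after 27 weeks, 2 glucose-releasing genes fell with PB and 1 glucose-using gene rose. G6pc, the phosphatase that frees glucose in the last step of its release, and Tat, the aminotransferase that starts tyrosine breakdown, fell. Pklr, the pyruvate kinase of hepatocytes, rose. These were 3 of the 8 genes tested, 2 lower and 1 higher, at a limma adjusted p below 0.05, and 14.7% of all 18273 tested genes were called, 7.30% lower and 7.38% higher. Groups did not overlap for 5 of the 8 genes, 4 lower and 1 higher, against 41.6% of all tested genes, 24.3% lower and 17.3% higher. After normexp background correction 60.7% of all calls were higher, against 50.3% here, with the same 3 genes called.

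G6pc (chromosome 11, 101367716 to 101377903) stood at 4.09, 5.28 and 5.58 in the PB animals, against 8.09, 7.86 and 7.09 in the controls. Each treated animal lay below each control. The change was -2.70 ± 0.44, a 6.48-fold fall (limma adjusted p = 0.0162). Tat (chromosome 8, 109986078 to 109999804) stood at 6.61, 5.87 and 5.22 in the PB animals, against 7.24, 7.39 and 7.39 in the controls. Its groups did not overlap either, and it fell by 1.44 ± 0.33 on the log2 scale, or 2.71-fold (adjusted p = 0.0376). Pcx (chromosome 19, 4510472 to 4621752), pyruvate carboxylase, which makes oxaloacetate for glucose synthesis, stood at 6.91, 6.57 and 6.4 with PB, against 7.22, 7.15 and 7.37. All treated animals were lower, and its change of -0.62 ± 0.17 had an adjusted p of 0.0530.

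Fbp1 (chromosome 13, 62864753 to 62888298), the fructose bisphosphatase that opposes phosphofructokinase, stood at 9.62, 8.34 and 8.30 with PB, against 9.97, 9.81 and 10.05 in controls. PB animals 2 and 3 lay far below the controls and animal 1 just below, with a change of -1.19 ± 0.36 (adjusted p = 0.0706). Pck1 (chromosome 2, 173153073 to 173159274), the carboxykinase that commits oxaloacetate to glucose, stood at 7.81, 5.01 and 1.52 with PB, against 8.23, 7.92 and 7.75. PB animal 1 lay inside the control range while animal 3 was the lowest of all 28 mice, so the change of -3.18 ± 1.43 did not pass (adjusted p = 0.164, 95% interval -6.61 to 0.25).

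Pklr (chromosome 3, 89136122 to 89146815) stood at 0.97, 0.77 and 1.25 in the PB animals, against 0.35, 0.22 and 0.43 in controls. The groups did not overlap, and it rose 1.59-fold (0.67 ± 0.16, adjusted p = 0.0403). Pkm (chromosome 9, 59656576 to 59679372), the pyruvate kinase of muscle and dividing cells, stood at 1.44, 1.82 and 1.79 with PB, against 0.88, 1.70 and 1.31. Its groups overlapped (0.38 ± 0.23, adjusted p = 0.284). The probes of Pklr and Pkm were not assigned to splice forms here, so their values stand for the genes. Hk2 (chromosome 6, 82725025 to 82774454), the hexokinase of muscle and fat, was well above background in 2 of 3 PB animals and in 0 of 3 controls and was not tested. Its signals of -4.24, -2.98 and -2.45 with PB, against -3.61, -3.15 and -5.02, overlapped. Slc2a2 (chromosome 3, 28697903 to 28728361) stood at 5.67, 4.8 and 4.6 with PB, against 5.54, 5.45 and 5.76. PB animal 1 was among the controls and the other 2 were below them (-0.56 ± 0.29, adjusted p = 0.210).

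**Figure D2:**
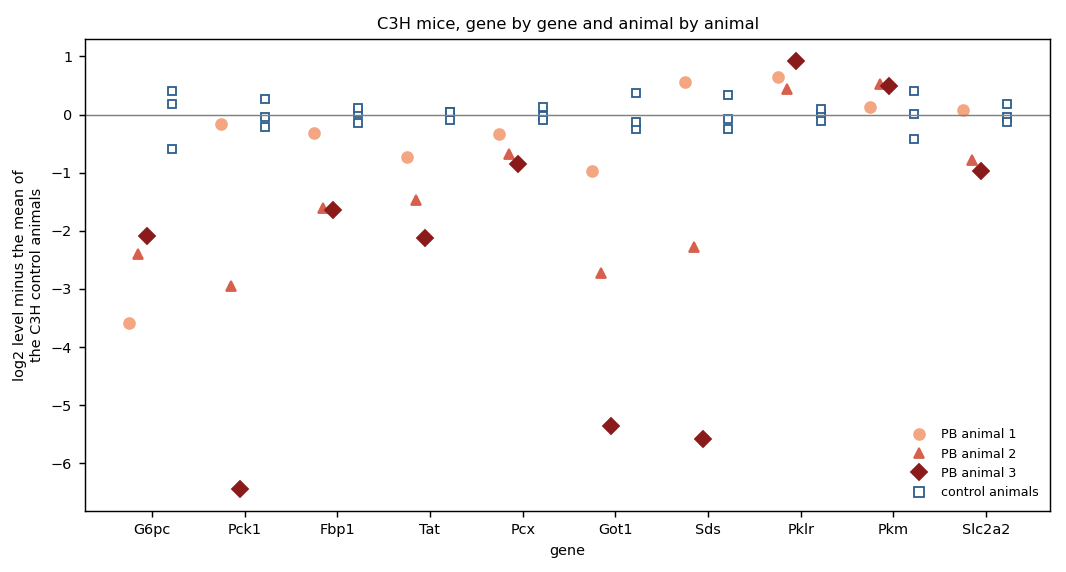
Log2 level minus the mean of the C3H controls for 10 genes, with 1 symbol per PB animal and open squares for the 3 controls. PB animal 1 has the lowest G6pc, at 4.09, and a Pck1 level of 7.81 inside the control range, whereas PB animal 3 has the lowest Pck1, Got1 and Sds, at 1.52, 1.75 and -1.08.

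The 3 treated C3H animals did not order the genes alike. PB animal 1 had the lowest G6pc, yet the highest Pck1, Fbp1, Tat, Pcx and Slc2a2 of the treated animals. Got1, the cytosolic aspartate aminotransferase, spread like Pck1, at 6.12, 4.37 and 1.75 with PB, against 7.47, 6.85 and 6.98 in controls (-3.02 ± 1.01, adjusted p = 0.0887). Sds, which turns serine into pyruvate, stood at 5.06, 2.23 and -1.08, against 4.83, 4.43 and 4.25 (-2.43 ± 1.4, adjusted p = 0.257); both genes were picked out after their values were seen. Without PB animal 1, 6 genes were called lower and Pklr higher, and 5386 genes were called in all, against 2682 with it. In that fit Pck1 changed by -4.70 (adjusted p = 0.0182), Fbp1 by -1.62 (0.00154), Pcx by -0.76 (0.0139) and Slc2a2 by -0.88 (0.0121). With any other animal left out, at most 1 of the genes was called. The adjusted p of G6pc became 0.0637 and 0.0579 without control 1 or 2 and 0.0531 without PB animal 2. Tat lost its call without any 1 control (0.102 to 0.119) and without PB animal 2 (0.113) or 3 (0.0597), as it did after quantile normalization (-1.31, 0.0513). Pklr did so without any 1 control (0.106 to 0.120) and without PB animal 2 (0.0674) or 3 (0.0865). It also did so with all 28 arrays in 1 fit (0.171), where Pck1 (0.00648) and Fbp1 (0.0185) passed. That fit shared 1 estimate of the spread per gene among all groups. The SD of Pck1 was 3.15 in C3H PB animals, against 0.24 to 0.79 in the other groups, so its p-value there understates the spread of the treated C3H animals.

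The lists around the 9 genes stand beside all tested genes in C3H mice, of which 7.38% were called higher and 7.30% lower. Of 11 tested glycogen genes 3 rose and 0 fell, among them Gbe1, the branching enzyme (1.06 ± 0.16, limma adjusted p = 0.0128), and Ppp1r3g, which brings protein phosphatase to glycogen (1.70 ± 0.33, 0.0241). The list's median change was 0.47, against -0.05 over all tested genes. Of 12 genes of pyruvate fate and the pentose phosphate path 2 rose, Tkt (0.69 ± 0.12, 0.0173) and Pgd (0.75 ± 0.18, 0.0424), and 0 fell (median 0.18). Of 13 other genes of gluconeogenesis 2 rose and 0 fell (median -0.15): Ldhb, the lactate dehydrogenase subunit of heart (1.45 ± 0.26, 0.0194), and G6pc3, the widely expressed relative of G6pc (0.63 ± 0.13, 0.0315). Of 20 other genes of glycolysis only Aldoa, the aldolase of muscle and most dividing cells, rose (0.51 ± 0.12, 0.0395), and 0 fell (median -0.09). Slc37a4, which carries glucose phosphate to the G6pc enzyme, changed by -0.22 ± 0.28 (0.608).

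Among 21 regulators of these enzymes in C3H mice 4 rose and 2 fell, with a median of -0.08. Trib3, a stress-induced pseudokinase known to bind AKT, rose by 2.0 ± 0.25 (0.00678), Sik1, a kinase that restrains cAMP signalling to these genes, by 1.44 ± 0.24 (0.0173), the insulin receptor substrate Irs1 by 1.20 ± 0.24 (0.0280) and the transcription factor Cebpb by 0.89 ± 0.18 (0.0288). Nr0b2, a corepressor of hepatic nuclear receptors, fell by 1.89 ± 0.25 (0.00820) and Irs2 fell by 0.99 ± 0.20 (0.0256). Foxo1 (-0.27 ± 0.13, 0.192), Ppargc1a (0.12 ± 0.30, 0.809), both activators of glucose production, and Gckr, a regulator of glucose use (-0.08 ± 0.15, 0.746), did not pass. Of 8 fasting-responsive genes 2 fell, among them Irs2, and 0 rose, 5 had positive changes, and the median was 0.21. Igfbp1, which rises in fasting, changed by 0.29 ± 0.75 (0.812). Pdk4, which shuts pyruvate out of mitochondrial oxidation and was picked out after its values were seen, stood at 2.29, 3.76 and 4.37 with PB, against -0.12, 1.55 and 1.66 in controls (2.44 ± 0.67, 0.0563), without overlap. None of the 7 feeding-responsive and none of the 6 clock genes tested passed; Dbp, a clock output gene, and Arntl, a clock activator, picked out after their values were seen, differed by 3.24 ± 1.27 (0.124) and -1.81 ± 0.77 (0.147) without overlap.

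Cell type markers moved in the same C3H animals. The 5 hepatocyte markers summed to 3088 to 3583 times the array's 75th percentile with PB, against 4625 to 5127 in controls, and 3 of 5 fell, Alb by 0.71 ± 0.14 (0.0279). All 6 liver tumour markers rose, with sums of 153 to 276 in PB animals, against 1.05 to 6.22 in controls, where Gpc3, Cdkn3 and Top2a were not well above background on any array. Ly6d made up most of the treated sums, at log2 levels of 6.99 to 7.85 with PB, against -2.41 to 1.27 in controls. PB animal 1 had the lowest of the treated sums. Lymphocyte markers summed to 14.2 to 35.6 with PB, against 46.3 to 65.0 (Cd8a and Cd79a among those not well above background on any array of either group), endothelial markers to 80.6 to 115, against 133 to 147, and macrophage markers to 73.5 to 88.1, against 89.3 to 117. The part of these differences in the results above was not tested.

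In hCAR/hPXR mice after 7 days, 2 glucose-using genes were higher with PB and none of the 5 glucose-releasing genes passed the test. Pkm and Hk2 rose and Slc2a2, the carrier, fell. This made 3 calls among 9 tested genes, 2 higher and 1 lower, in a comparison that called 58.1% of all 20037 tested genes, 35.0% higher and 23.2% lower. Groups did not overlap for Pkm and Hk2, that is 2 of 9, both higher, against 20.5% of all tested genes, 12.3% higher and 8.17% lower. With the percentile taken over probes detected on all 28 arrays, the median of all genes was -0.05, against 0.13 here, and 37.2% of all calls were higher, against 60.2%.

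Pkm ranged from 0.89 over a median of 1.51 to 1.61 in the PB animals, against 0.51, 0.67 and 0.73 in controls (lowest, median, highest). PB animal 1 had the lowest of the treated values and was still above all controls. The change was 0.76 ± 0.10, or 1.70-fold (limma adjusted p = 5.08e-05). Hk2 lay at -2.47, -2.17 and -1.69 with PB (lowest, median, highest), against -3.50, -2.91 and -2.69. The groups did not overlap, all 7 PB arrays and 6 of 7 control arrays were well above background, and it rose 1.81-fold (0.85 ± 0.13, adjusted p = 0.000121). Pklr lay at -0.80, 0.07 and 0.49, against -0.23, 0.03 and 0.84, with overlap (-0.24 ± 0.22, adjusted p = 0.356). Slc2a2 lay at 3.30, 4.51 and 5.08 with PB, against 4.33, 5.07 and 5.40. PB animals 5 and 7 lay below all controls and the rest among them, and it fell 1.58-fold (-0.66 ± 0.26, adjusted p = 0.0429).

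G6pc lay at 5.92, 6.66 and 7.41 in hCAR/hPXR PB animals (lowest, median, highest), against 5.81, 6.88 and 7.25 in controls. The ranges nearly coincided, and the change of -0.08 ± 0.23 (adjusted p = 0.768) had a 95% interval of -0.57 to 0.40. Pck1 lay at 7.15, 7.80 and 8.62 with PB, against 7.44, 8.27 and 8.52 (-0.31 ± 0.21, adjusted p = 0.219, interval -0.76 to 0.14). Its ranges overlapped widely. Tat lay at 6.98, 7.23 and 7.81, against 7.31, 7.51 and 7.58. The treated animals spread to both sides of the controls (-0.20 ± 0.12, adjusted p = 0.165). Fbp1 lay at 9.28, 9.48 and 9.59, against 9.20, 9.40 and 9.61 (0.08 ± 0.07, 0.348). Pcx lay at 6.82, 6.89 and 7.05, against 6.48, 6.70 and 6.97, with overlap (0.19 ± 0.09, 0.0884).

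The slide bears on these calls. With the slide as a block, the estimate rests on PB animal 1, which shared a slide with the controls, and assumes that this animal varies like the others. Then 440 genes were called and 0 of the 9. Hk2 kept its size, 0.93 ± 0.27 (adjusted p = 0.102), while Pkm came to 0.27 ± 0.15 (0.408), Slc2a2 to 0.12 ± 0.49 (0.931), Pck1 to -1.02 ± 0.37 (0.204) and Tat to -0.52 ± 0.22 (0.275). With the slide as a random block, Hk2 (0.88, 0.00559) and Pkm (0.59, 0.00738) passed and Slc2a2 (-0.38, 0.442) did not. Hk2 and Pkm were called with any 1 animal left out. Slc2a2 lost its call without control 3, 4, 6 or 7 and without PB animal 2, 5, 6 or 7 (adjusted p = 0.0502 to 0.0918). Tat passed without PB animal 5 (-0.28, 0.0231) and Pcx without control 6 (0.23, 0.0381). Tat also passed after quantile normalization (-0.47, 0.00624) and with the percentile over probes detected on all arrays (-0.38, 0.0131), Pck1 after quantile normalization (-0.62, 0.0263), and Pcx after normexp correction (0.21, 0.0495).

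**Figure D3:**
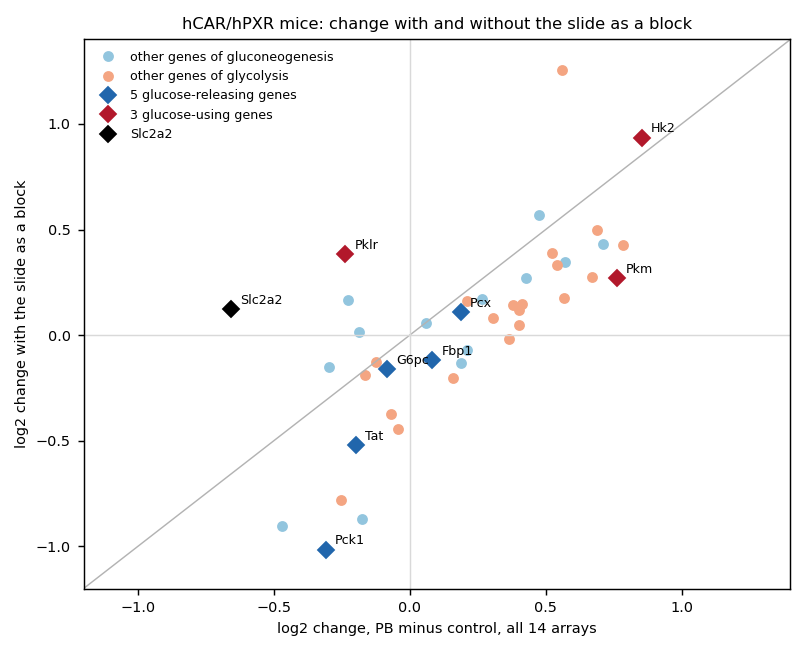
Log2 change with PB in hCAR/hPXR mice from all 14 arrays (horizontal) against the change with the slide as a block (vertical), for the 9 genes (labelled diamonds) and other genes of gluconeogenesis and glycolysis (circles), with the diagonal marking equal values. Hk2 lies near the diagonal, at 0.85 and 0.93, and Pkm below it, at 0.76 and 0.27.

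Of 20 other genes of glycolysis in hCAR/hPXR mice 13 rose with PB, 0 fell and 7 did not pass, 5 of the 20 with negative changes. The median was 0.39, against 0.13 over all tested genes, of which 35.0% were called higher and 23.2% lower, the shares against which the lists that follow also stand. The smallest adjusted p belonged to Aldoa (0.78 ± 0.10, 3.65e-05), Gpi1, the isomerase after the hexokinases (0.52 ± 0.07, 6.05e-05), Tpi1, triose isomerase (0.57 ± 0.09, 0.000147), and the widely expressed sugar carrier Slc2a1 (0.69 ± 0.14, 0.00104). With the slide as a block 0 of the 20 passed, and the median was 0.13, against 0.05 over all genes. Of 13 other genes of gluconeogenesis 4 rose and 2 fell (median 0.19), and 0 passed with the slide as a block. Mdh2 (0.57 ± 0.08, 4.18e-05), G6pc3 (0.71 ± 0.13, 0.000299), Got2 (0.43 ± 0.08, 0.000339) and Gpt2 (0.47 ± 0.13, 0.00586), enzymes of glucose phosphate and of the mitochondrial exchange of amino and keto acids, rose, and Got1 (-0.47 ± 0.16, 0.0188) and Gpd1 (-0.30 ± 0.10, 0.0244) fell. Slc37a4 gave -0.19 ± 0.10 (0.116).

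Of 11 glycogen genes in hCAR/hPXR mice 5 rose and 1 fell (median 0.0073). Gbe1 (0.80 ± 0.10, 2.77e-05) also passed with the slide as a block (0.85, 0.0438). The phosphorylase kinase subunit Phka2 (0.57 ± 0.09, 0.000124) and Pgm1 (0.36 ± 0.08, 0.00239) rose, and Ppp1r3b, a glycogen-targeting phosphatase subunit, fell by 0.54 ± 0.13 (0.00362). Among 21 regulators 3 rose and 2 fell (median 0.10): Mlxipl, which senses sugar and drives Pklr transcription (0.65 ± 0.11, 0.000301), the glucagon receptor Gcgr (0.38 ± 0.08, 0.00126) and Gckr (0.29 ± 0.06, 0.00138) rose, and Klf15 (-0.85 ± 0.22, 0.00445) and Ppargc1a (-0.60 ± 0.19, 0.0163) fell. Foxo1 gave -0.24 ± 0.13 (0.113). None of these 5 passed with the slide as a block.

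Of 8 feeding-responsive genes 5 rose in hCAR/hPXR mice and 0 fell (median 0.58), led by the fatty acid elongase Elovl6 (1.27 ± 0.16, 2.93e-05), which also passed with the slide as a block (1.63, 0.0151). Pnpla3 (0.82 ± 0.29, 0.0249), Acly (0.41 ± 0.15, 0.0306) and Fasn (0.71 ± 0.26, 0.0312) followed. Of 7 fasting-responsive genes 1 rose, Pdk4, which shuts pyruvate out of the mitochondrial oxidation path (0.81 ± 0.18, 0.00162), and 3 fell, among them Ppargc1a and Angptl4 (-0.72 ± 0.26, 0.0295). Igfbp1 gave -0.06 ± 0.41 (0.913). The pentose phosphate and pyruvate list had 6 of 12 up and 0 down (median 0.22), led by Tkt (0.84 ± 0.10, 2.92e-05), G6pdx (0.65 ± 0.13, 0.000615) and the pyruvate carrier subunit Mpc2 (0.20 ± 0.06, 0.0127). Of 7 clock genes 2 fell, Cry1 (-1.05 ± 0.20, 0.000583) and Per1 (-0.71 ± 0.26, 0.0287). With the slide as a block, 0 genes of the fasting-responsive, the pentose phosphate and pyruvate, and the clock lists passed, and Elovl6 was the 1 call among the feeding-responsive genes, while 2 of 11 glycogen genes passed.

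In these hCAR/hPXR mice the 5 hepatocyte markers summed to 2181 to 2737 with PB, against 2249 to 2919, and 0 of 5 passed. Of 5 tested tumour markers 4 rose, with sums of 14.9 to 40.1 with PB, against 1.35 to 9.85 (Gpc3 not well above background on any array). These calls were made without a slide term. The median change of the tumour markers was 1.96, and 1.76 with the slide as a block, where the estimate rests on PB animal 1. Here too Ly6d made up most of the treated sums, at log2 levels of 3.70 to 5.24 with PB, against -1.02 to 3.18 in controls. Of 5 tested lymphocyte markers 2 fell and 1 rose, with sums of 13.7 to 23.0, against 31.0 to 48.0 (Cd8a not well above background on any array). These calls too were made without a slide term, and the lymphocyte median of 0.08 came to -0.43 with the slide as a block. Macrophage markers summed to 122 to 250, against 114 to 154, and of 7 tested 3 rose and 0 fell. With the slide as a block 0 of these 7 passed, and their median was -0.11, against 0.31. The part of these differences in the results above was not tested.

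In CD-1 mice after 7 days, the glucose-releasing genes G6pc, Tat and Pcx fell with PB and no glucose-using gene passed. These were 3 of 8 tested genes, all lower, where 7.99% of all 23789 tested genes were called, 6.14% lower and 1.85% higher. Groups did not overlap for 2 of the 8, G6pc and Pcx, both lower, against 18.6% of all tested genes, 12.0% lower and 6.62% higher. After quantile normalization 33.8% of all calls were higher, against 23.2% here. All 8 changes were negative (median -0.92, against -0.04 over all tested genes). That of Pklr came to 0.05 when the percentile was taken over probes detected on all 28 arrays, which put the median of all genes at 0.22.

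G6pc stood at 2.29, 4.18, 4.34 and 4.05 in the CD-1 PB animals, against 5.27, 5.34, 5.80 and 5.37 in controls. All treated animals lay below all controls, PB animal 1 by far the most. It fell 3.32-fold (-1.73 ± 0.41, limma adjusted p = 0.0223) and lost its call without control 3 (-1.61, 0.0737). Tat stood at 2.68, 3.26, 4.4 and 3.33, against 4.82, 4.91, 5.46 and 4.35. PB animal 3 lay just above the lowest control, and Tat fell 2.76-fold (-1.47 ± 0.37, adjusted p = 0.0299). Pcx stood at 3.15, 3.41, 4.13 and 3.23, against 5.16, 4.16, 4.95 and 4.41. The closest pair of the 2 groups differed by little, without overlap, and Pcx fell 2.28-fold (-1.19 ± 0.32, adjusted p = 0.0402).

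Pck1 stood at 2.68, 2.26, 3.64 and 3.79 in CD-1 PB animals, against 3.48, 3.94, 5.07 and 3.34, with overlap (-0.86 ± 0.44, adjusted p = 0.22). Fbp1 stood at 5.29, 6.56, 7.07 and 6.71, against 7.02, 5.95, 7.36 and 7.25, also with overlap (-0.49 ± 0.42, 0.464). Slc2a2 stood at 0.01, 1.70, 1.04 and 1.31, against 2.18, 1.60, 2.50 and 1.72. PB animal 2 exceeded 1 control, and the change was -0.99 ± 0.37 (0.113). Pklr stood at 1.71, 3.15, 2.81 and 2.71, against 2.91, 2.63, 2.70 and 3.00 (-0.22 ± 0.32, 0.683). Pkm stood at -1.38, -1.27, -1.12 and -0.79, against -0.63, -1.04, -0.59 and -0.51 (-0.45 ± 0.26, 0.282). Both pyruvate kinase genes overlapped between groups. Hk2 was well above background in 1 of 4 PB animals, animal 4 at -1.72, and in 0 of 4 controls, and was not tested.

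Tat and Pcx depended on single CD-1 animals. Tat lost its call without control 2 (-1.46, adjusted p = 0.0510) or 3 (-1.28, 0.103) and without PB animal 1 (-1.22, 0.0895), 2 (-1.41, 0.0896) or 4 (-1.44, 0.0822), as well as after quantile normalization (-1.24, 0.0518) and with the percentile over probes detected on all arrays (-1.2, 0.0569). Pcx lost its call without control 1 (-1.03, 0.0757), 3 (-1.10, 0.122) or 4 (-1.28, 0.0502) and without PB animal 1 (-1.08, 0.103), 2 (-1.17, 0.107) or 4 (-1.11, 0.112). Without control 3, 0 of the genes were called.

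The wider lists in CD-1 mice held few calls. Of 13 other genes of gluconeogenesis 0 passed and 12 had negative changes (median -0.61, against -0.04 over all genes); Slc37a4 was the exception at 0.43 ± 0.31 (0.379). Of 18 other genes of glycolysis Hk1, the hexokinase of most tissues, rose by 2.17 ± 0.42 (0.00952, with 1 control missing as an outlier spot), and Ldha, the lactate dehydrogenase subunit of muscle, fell by 1.28 ± 0.33 (0.0349), with a list median of -0.21. Of 20 regulators 2 fell, the insulin receptor Insr (-1.22 ± 0.28, 0.0184) and Irs2 (-2.02 ± 0.41, 0.0108), and 0 rose (median -0.58); Foxo1 (-1.19 ± 0.38, 0.0707), Ppargc1a (-0.81 ± 0.28, 0.0875) and Gckr (-0.63 ± 0.30, 0.193) did not pass. The glycogen list had 1 call in 10, Ppp1r3c, which targets phosphatase to glycogen (-2.52 ± 0.47, 0.00581, median -0.27). Of 7 fasting-responsive genes 2 fell, among them Irs2, 0 rose, and all 7 were negative (median -1.65), Igfbp1 with -2.47 ± 0.78 (0.0688). The lipogenic factor Srebf1 fell by 1.12 ± 0.26 (0.0203), the 1 call among 8 feeding-responsive genes (median 0.07). None of 12 pyruvate and pentose phosphate genes (median -0.11) and none of 5 clock genes (median -0.31) passed.

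The 5 hepatocyte markers of CD-1 mice summed to 414 to 916 with PB, against 1100 to 2014 in controls, and 2 of 5 fell, Alb by 1.97 ± 0.36 (0.00485) and Apoa1 by 1.32 ± 0.31 (0.0219). PB animal 1, the lowest for G6pc, Fbp1, Tat, Pcx, Pklr, Pkm and Slc2a2, also had the lowest hepatocyte sum. The 75th percentile of its array, subtracted from all of these levels, was 7.02 on the log2 scale. On the arrays of PB animals 2, 3 and 4 it was 6.50, 6.15 and 6.27. A higher percentile lowers all levels of an array together, and its part in these low values was not tested. The neutrophil gene S100a8 rose by 6.67 ± 0.29 (1.62e-07), while the 6 neutrophil markers summed to 43.2 to 157, against 30.9 to 126 (Mpo not well above background on any array). The part of these differences in the results above was not tested.

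**Figure D4:**
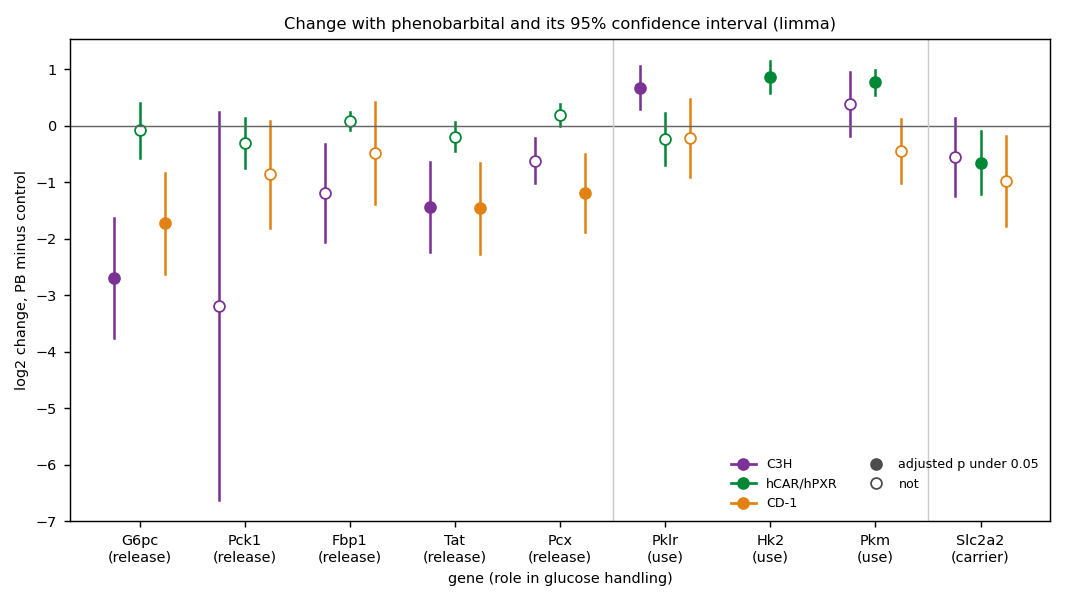
Log2 change with PB, PB minus control, with its 95% confidence interval from limma for each gene in C3H, hCAR/hPXR and CD-1 mice. Filled points passed an adjusted p of 0.05; G6pc sits at -2.70, -0.08 and -1.73, and Hk2 was tested in hCAR/hPXR mice only.

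The responses differed between strains for some genes. Interaction terms of a limma model over the 28 arrays tested each difference, and the 3 pairs of strains share animals. The model held 1 estimate of the spread per gene for all groups, although Pck1 varied far more among C3H PB animals than elsewhere. No slide term was fitted in these models, and in hCAR/hPXR mice alone the slide block moved Pkm to 0.27 and Pck1 to -1.02, as given above. In CD-1 mice PB and control arrays lay on separate slides, so differences from the CD-1 effect cannot be told apart from slide. G6pc changed by -2.70 in C3H, against -0.08 in hCAR/hPXR mice, a difference of -2.61 ± 0.53 (adjusted p = 0.00211), which passed with any 1 animal left out and under every other scaling, filter and probe rule tried. Tat changed by -1.44 in C3H, against -0.20 in hCAR/hPXR mice, a difference of -1.24 ± 0.39 (0.0422); it passed in 4 of 20 fits with 1 animal left out, those without C3H PB animal 1 or hCAR/hPXR PB animal 1, 3 or 6 (0.0502 to 0.182 in the others), and gave -0.85 (0.218) after quantile normalization. Among 9 tested genes these 2 were called, both lower, against 9.55% of all genes, 5.39% lower. Pck1 (-2.88 ± 0.97, 0.0598), Fbp1 (-1.27 ± 0.42, 0.0525) and Pcx (-0.81 ± 0.28, 0.0671) did not pass, and did without C3H PB animal 1 (-4.39, 0.000163, -1.71, 0.00525, and -0.95, 0.0380); Pck1 (-2.99, 0.0462) and Fbp1 (-1.31, 0.0445) also did without hCAR/hPXR PB animal 1.

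Between hCAR/hPXR and CD-1 mice 4 of 9 genes differed, all 4 with a higher value in hCAR/hPXR mice, against 28.6% of all genes, 19.5% higher and 9.11% lower. The differences were 1.65 ± 0.49 for G6pc (limma adjusted p = 0.0134), 1.27 ± 0.36 for Tat (0.0102), 1.38 ± 0.26 for Pcx (0.000532) and 1.21 ± 0.23 for Pkm (0.000543). Those of G6pc and Tat came to 1.15 (0.0575) and 0.77 (0.075) after quantile normalization, and to 1.20 (0.0511) and 0.82 (0.0595) with the percentile over probes detected on all arrays. Hk2 gave 0.90 ± 0.56 (0.229), and passed without CD-1 PB animal 4 (1.56, 0.0103) and after normexp correction (0.74, 0.00108). CD-1 PB animal 4 was the 1 CD-1 array with Hk2 well above background, so these values cannot decide whether the PB effect differed. Between C3H and CD-1 mice Pkm differed, 0.38 against -0.45, by 0.84 ± 0.28 (0.0431), 1 of 8 genes, higher in C3H, against 15.1% of all genes, 9.63% higher. It kept its call in 5 of 14 fits with 1 animal left out, those without C3H control 2, C3H PB animal 1, CD-1 control 2 or CD-1 PB animal 3 or 4 (0.0658 to 0.138 in the others), and lost it with the percentile over probes detected on all arrays (0.58, 0.157). G6pc differed by -0.96 ± 0.59 (0.272) between C3H and CD-1 mice, and Pck1 by -2.32 ± 1.09 (0.147), or by -3.83 (0.00203) without C3H PB animal 1. Pklr did not pass for C3H minus CD-1 (0.89 ± 0.43, 0.163) or C3H minus hCAR/hPXR (0.91 ± 0.38, 0.138). The latter passed with the percentile over probes detected on all arrays (1.10, 0.0439).

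**Figure D5:**
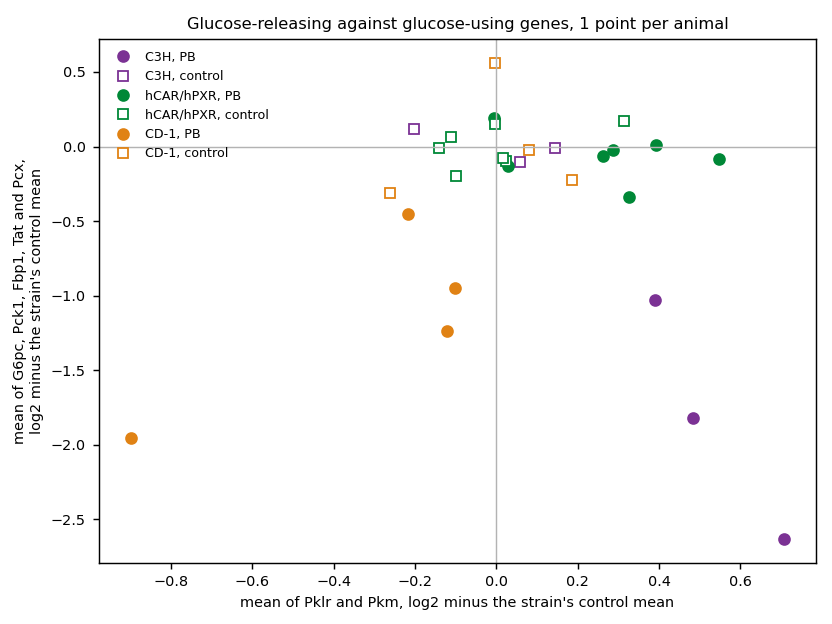
Mean of the 5 glucose-releasing genes (vertical) against the mean of Pklr and Pkm (horizontal) in each animal, both as log2 level minus the mean of the strain's controls; filled points are PB animals and open squares controls. The 3 C3H PB animals lie lower right, at -1.03, -1.82 and -2.63 for release, and the 4 CD-1 PB animals lower left.

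Set against each other as differences from the strain's control mean, glucose-releasing and glucose-using genes lay on opposite sides of 0 in all 3 C3H PB animals. Their release means were -1.03, -1.82 and -2.63, and their means of Pklr and Pkm were 0.39, 0.48 and 0.71. The 3 C3H controls also had means on opposite sides of 0, but nearer to it. Their release means were 0.11, -0.01 and -0.10, and their use means -0.20, 0.14 and 0.06, so size and not sign set the groups apart. In each C3H PB animal, all 5 releasing genes were below the control mean and Pklr and Pkm above it. Hk2 was kept out of these means because it was near background in C3H and CD-1 mice. Its difference from the control mean was -0.31, 0.95 and 1.47 in the C3H PB animals, and 0.49 to 1.27 in the 7 hCAR/hPXR PB animals. In hCAR/hPXR PB animals the release mean ranged from -0.34 to 0.19 and the use mean from -0.01 to 0.55, against -0.20 to 0.17 and -0.14 to 0.31 in controls. In CD-1 PB animals both means were below 0 in every animal, -1.95 to -0.46 for release and -0.90 to -0.10 for use, against -0.31 to 0.56 and -0.26 to 0.18 in controls. These means are descriptions of chosen genes and carry no test.

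The control animals of C3H and hCAR/hPXR mice differed in level from those of CD-1 mice for all 8 tested genes under the scaling used here. C3H controls exceeded CD-1 controls for 7 of 8 tested genes, from 1.99 ± 0.19 for Pkm to 4.01 ± 0.76 for Pck1, and Pklr was lower in C3H, by -2.48 ± 0.30 (limma adjusted p = 2.12e-08). The same 7 genes were higher in hCAR/hPXR than in CD-1 controls, from 1.32 ± 0.16 for Pkm to 4.21 ± 0.63 for Pck1, and Pklr was lower (-2.71 ± 0.25, 9.69e-11). Calls covered 88.9% of all genes against CD-1 in C3H (50.9% higher, 38.0% lower) and 88.2% in hCAR/hPXR controls (50.8% higher, 37.4% lower), the CD-1 arrays were dimmer, and strain and array batch cannot be told apart. Scaled to probes detected on all arrays, which moved the median of all genes by over 1, the calls of G6pc and Pkm were lost in both comparisons. For C3H minus CD-1, G6pc then differed by 0.36 (adjusted p = 0.393), Pkm by 0.12 (0.596) and Tat by 0.58 (0.0544). For hCAR/hPXR minus CD-1, G6pc and Pkm turned to -0.14 (0.688) and -0.17 (0.322). After quantile normalization G6pc differed by 0.20 (0.644) and Tat by 0.37 (0.229) between C3H and CD-1 controls, and G6pc by -0.072 (0.839) between hCAR/hPXR and CD-1 controls. Between C3H and hCAR/hPXR controls 2 of 8 genes were called, both higher in C3H, against 48.4% of all genes, 29.8% higher. Pkm was higher in C3H by 0.67 ± 0.17 (0.00234) and Pcx by 0.53 ± 0.20 (0.0290), and both fell short when scaled to probes detected on all arrays (0.29, 0.188, and 0.14, 0.391). Pcx also lost its call without hCAR/hPXR control 5 (0.0528) or any 1 C3H control (0.0503 to 0.118), and Pkm without C3H control 2 (0.0503). G6pc, at 0.88 ± 0.37 (0.0518), passed without hCAR/hPXR control 2 (0.0421) or 3 (0.0483) or C3H control 3 (0.0308).

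Ordered over the 6 groups under the scaling used here, G6pc was highest in C3H controls (7.68 ± 0.52, SD, n = 3), then in hCAR/hPXR controls (6.80 ± 0.46, n = 7) and PB animals (6.71 ± 0.46, n = 7), whose ranges overlapped from one to the next. CD-1 controls (5.44 ± 0.24, n = 4) lay below these without overlap, followed by C3H PB animals (4.98 ± 0.79, n = 3), and CD-1 PB animals (3.71 ± 0.96, n = 4), each overlapping the group before. The place of the CD-1 groups in this order rests on the scaling, since the control differences of G6pc from CD-1 mice lost their calls under 2 others, as given above. For Pklr the order turned round, with CD-1 controls (2.81 ± 0.17) and PB animals (2.60 ± 0.62) on top, then C3H PB animals (1.0 ± 0.24) without overlap, C3H controls (0.33 ± 0.11) without overlap, and hCAR/hPXR controls (0.10 ± 0.37) and PB animals (-0.13 ± 0.49), which overlapped each other and the C3H controls. Over the 28 arrays, with each strain's mean subtracted, the 3 genes most like G6pc among 8196 detected on all arrays were Clpx (Pearson r = 0.87), Cat (0.86) and Retsat (0.85), and those most like Pklr were Clstn3 (0.75), Gpd2 (0.74) and Pygl (0.72). The points share the treatment groups, so these values describe likeness only.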

How the data were processed

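Liver RNA of 28 mice was measured on 1-colour Agilent arrays. Per the file headers, the deposited scanner files hold intensity values from Agilent Feature Extraction 10.7.3.1, background-subtracted and detrended within each array. The authors' deposited value table holds log2 values, which differ from the scaling used here by a constant of -0.02 to 0.01 per array for at least 99.8% of probes (tolerance 0.01), and served as an alternative. Outlier spots were left out, replicate spots were averaged, and the 75th percentile of 55681 non-control probes was subtracted on the log2 scale. RefSeq accessions named 26582 probes (GRCm38.p6), and the probe with the highest mean represented a gene. A gene was tested when well above background on every array of at least 1 group compared. Values after ± are standard errors unless marked SD. Tests were two-sided, by limma 3.58.1 in R 4.3.3 (lmFit, eBayes), within each strain or, between strains, over all 28 arrays, with Benjamini-Hochberg adjusted p-values computed across every tested gene and called below 0.05. The number of arrays limits the precision.

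The 9 genes and the other lists were chosen with earlier results of these data known. The genes named from each list are up to 4 called members per direction with the smallest adjusted p, plus Gckr, Slc37a4, Ppargc1a, Foxo1 and Igfbp1; a few genes that this rule covers are not reported here. The labels call the animals biological replicates; 179 of 182 listed genes were on the array under their symbols. Lists are described by counts and medians, without set tests.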

Additional observations from a re-analysis of the deposited data

Results flagged for a closer look

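Of 36 groups of 4 to 10 animals looked at, 7 had 1 animal far from the others relative to the range of its group, a rule by which chance alone picks about 1 in 20 groups. The groups are not independent, since all genes were measured in the same animals, and they include Hk2 values not well above background, so the number is not set against that rate. In CD-1 mice these were PB animal 1 for G6pc, at 2.29 with the next at 4.05, and PB animal 4 for Hk2, at -1.72 with the next at -4.16, the 1 CD-1 array on which Hk2 was well above background. In hCAR/hPXR mice PB animal 1 stood apart for Fbp1, at 9.28 with the next at 9.46. Among hCAR/hPXR controls, animal 1 stood apart for G6pc (5.81, next 6.78), animal 4 for Tat (7.31, next 7.49), animal 6 for Pklr (0.84, next 0.20) and animal 3 for Hk2 (-3.50, next -3.01). Controls 4 and 6 are among the 3 hCAR/hPXR arrays whose replicate spots varied beyond the scanner software's range. With those 3 arrays left out, Pklr in hCAR/hPXR mice came to 0.01, Tat to -0.32 (limma adjusted p = 0.0251) and Slc2a2 to -0.38 (0.221), a setting chosen after seeing the data.

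The effect of PB differed between strains for 7 gene and strain pairs by the test of the difference itself. Relative to CD-1 mice, hCAR/hPXR mice differed by 1.65 for G6pc, 1.38 for Pcx, 1.27 for Tat and 1.21 for Pkm, and C3H mice by 0.84 for Pkm. Relative to hCAR/hPXR mice, C3H mice differed by -2.61 for G6pc and -1.24 for Tat. For hCAR/hPXR against CD-1 mice these were 4 of 9 tested genes, against 28.6% of all genes. For C3H against CD-1 mice 1 of 8 was called, against 15.1%, and for C3H against hCAR/hPXR mice 2 of 9, against 9.55%. Under some other settings, given above, hCAR/hPXR minus CD-1 lost the calls of G6pc and Tat. C3H lost those of Pkm against CD-1 and of Tat against hCAR/hPXR mice.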

How the results depend on the processing

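No paired analysis was made as a main result, because the replicate numbers only name the animals (correlations of same-numbered deviations were -0.45 to 0.06 in CD-1, -0.13 to 0.27 in hCAR/hPXR and 0.04 to 0.18 in C3H mice); with the replicate block 1164 genes and 2 of the 9 were called in CD-1, 11422 and 2 in hCAR/hPXR, and 1543 and 0 in C3H mice. In CD-1 mice 4288 genes were called after normexp correction and 6172 with all 28 arrays in 1 fit, against 1900, and 0 of the 9 with no filter on dim probes, against 3. Pklr came to 0.046 with the percentile over detected probes. Leaving out 1 animal gave 939 to 2164 genes, 0 to 3 of the 9, and Pklr -0.40 to 0.079. In hCAR/hPXR mice 440 genes were called with the slide as a block, 251 within the shared slide and 5368 with a random block, against 11643; 5 of the 9 were called after quantile normalization and 0 with the slide as a block or within it, against 3. Fbp1 came to -0.019 (normexp), -0.11 (quantile), -0.10 (detected probes) and -0.12 (slide as a block and within it), Pcx to -0.057 (quantile), Pklr to 0.38 and Slc2a2 to 0.12 (both with the slide as a block and within it), and Pklr to 0.0082 without the 3 arrays of variable spots. Leaving out 1 animal gave G6pc -0.25 to 0.048. In C3H mice 612 genes and 0 of the 9 were called with no filter, against 2682 and 3, and leaving out 1 animal gave 575 to 5386 genes and 0 to 7 of the 9. For the difference hCAR/hPXR minus CD-1, 2 of the 9 were called after quantile normalization and with detected probes, against 4, and Slc2a2 came to -0.090 (normexp) and -0.12 (detected probes); leaving out 1 animal gave Pklr -0.32 to 0.17 and Slc2a2 -0.0090 to 0.56. For C3H minus CD-1, 0 were called with detected probes or no filter, against 1, and Tat came to -0.47 (normexp), -0.077 (quantile) and -0.23 (detected probes); leaving out 1 animal gave 2535 to 5174 genes, 0 to 2 of the 9, and Tat -0.33 to 0.37. For C3H minus hCAR/hPXR, 828 genes and 1 of the 9 were called after quantile normalization, 5 with detected probes and 1 with no filter, against 1964 and 2, and Hk2 came to 0.21 (quantile) and 0.047 (detected probes); leaving out 1 animal gave 1097 to 2666 genes, 1 to 5 of the 9, Hk2 -0.70 to 0.36 and Slc2a2 -0.22 to 0.31. Among control levels, no filter gave 32503 genes for hCAR/hPXR minus CD-1 and 32097 for C3H minus CD-1, where 5 of the 9 were called with detected probes. In hCAR/hPXR minus CD-1 controls G6pc came to -0.072 (quantile) and -0.14 (detected probes) and Pkm to -0.17 (detected probes). In C3H minus hCAR/hPXR controls 5314 genes were called after quantile normalization, and of the 9, 1 after normexp, 1 after quantile normalization, 0 with detected probes and 1 with no filter; Fbp1 came to -0.022 (normexp) and -0.32 (quantile), Pcx to -0.083 (quantile) and Pklr to -0.16 (detected probes), and leaving out 1 animal gave 0 to 3 of the 9. The share of calls that were higher was 57.3% (quantile) and 32.0% (detected probes), against 68.2%, for the difference hCAR/hPXR minus CD-1, 47.9% (detected probes), against 63.8%, for C3H minus CD-1, and 61.8% (quantile) and 66.5% (detected probes), against 43.5%, for C3H minus hCAR/hPXR. Without a filter more genes enter the adjustment; the cause of the other changes was not tested. Over all gene results and alternatives, 1304 kept direction and side of the threshold, 104 lost and 30 gained a call, and 50 changed sign. Dim signal limits Hk2, which stood near background outside hCAR/hPXR mice.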

Other observations

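Over the 28 arrays with each strain's mean subtracted, the genes most like Pck1 were Sds (Pearson r = 0.97), Arg1, the urea-cycle enzyme (0.94), and Got1 (0.93), picked out after their values were seen. Among 8 of the genes themselves, Hk2 left out because it was not detected on all arrays, Tat and Pcx were the most alike (0.82), then Pck1 and Tat (0.75) and Fbp1 and Tat (0.72), whereas G6pc and Pck1 reached 0.40. Pklr gave -0.34 with Pck1 and 0.60 with Slc2a2, and Pkm gave -0.29 with Slc2a2 and 0.29 with Pcx. The points share treatment groups and, in hCAR/hPXR and CD-1 mice, slides, so these are descriptions.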
